A study of Lachancea kluyveri with 12 samples.

Results

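The left arm of chromosome C of the yeast Lachancea kluyveri was taken as the first 1 Mb of the chromosome. It held 284 of the 895 regions that were called reproducibly for the transcription factor Sef1 in at least 1 of 2 growth media. A region was a merged stretch of called intervals that overlapped by at least 1 bp. It was kept when all 3 libraries of a medium had called it, and it was placed on the arm when the mean of its called positions lay at or below 1000000. The members were thus selected on measured calls by medium, and the arm itself was singled out because it held many of them. Their number, their density and their distribution over the media are accordingly given as a description, with no test.

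Binding was measured by ChIP-seq (sequencing after chromatin immunoprecipitation). In it, protein is fixed to DNA and pulled down, and the DNA that comes with it is sequenced beside input DNA that was not precipitated. All libraries came from 1 strain, SkSef1TAPNB1-1, which carried Sef1 fused to a TAP affinity tag, so that the 4 groups of 3 differed only in the medium and in whether the DNA was precipitated or input. Cells were shifted from overnight YPD, a glucose medium, into fresh YPD or into YPGly, a glycerol medium, at 0.2 OD600 per ml and kept at 30 °C for 5.5 h. At fixation the YPD cultures stood at 1 OD600 per ml and the YPGly cultures at 0.5, so medium and cell density cannot be told apart. The lists carry no read counts per library. Precipitates of an untagged strain were not analysed here, and the study reports that they gave no called peak.

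Sef1 is a zinc cluster protein, a fungal class of transcription factors that bind DNA through zinc-coordinating cysteines. In Candida albicans it activates the genes of iron uptake. Glycerol has to be respired, and respiration depends on many enzymes that carry iron. The left arm of chromosome C of L. kluyveri is known for a base composition richer in G and C than the rest of the genome and for delayed replication. Base composition was not measured here, and its part in the results was not tested.

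The lists held 442 to 479 positions in the YPD libraries and 935 to 999 in the YPGly libraries. Of these, 78 to 82 lay on the arm in a YPD library and 325 to 360 in a YPGly library. An interval was 190 bp wide in the list of YPGly replicate 1 and 170 bp elsewhere, so the regions had a median width of 197 bp, with a range from 184 to 433 bp.

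Of the 284 members, 279 had calls from all YPGly libraries, and 68 from all YPD libraries. The largest class was the 198 YPGly-only regions, which no YPD library had called. They made up 69.7% of the members, against 50.7% of the 895 regions of the genome. A further 63 members were called in all 6 libraries, and 18 had all YPGly calls and 1 or 2 YPD calls. Only 3 members were YPD-only, 1.06% of the arm against 9.94% over the genome, and 2 were called in all YPD and in 1 or 2 YPGly libraries. Since calls by medium chose the members and led to the choice of the arm, nothing is read from these shares. When every list was cut to the positions of highest score, as many as the shortest list holds, the arm kept 115 members. Of these, 39 were YPGly-only and 54 were called in all 6 libraries, so YPGly-only was then not the largest class. Where only positions with a lower bound of the fold of at least 2 counted, 140 members remained, of which 94 were YPGly-only. The shares over the genome under these settings were not computed.

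Another 141 merged regions of the arm were called, but in all 3 libraries of neither medium. Of these, 84 had a position in 1 YPGly library, 46 in 2 YPGly libraries, and 11 in at least 1 YPD library. These regions did not meet the call rule and were mostly weak. The 192 positions in them had a median fold of 1.41 and a highest fold of 5.05, where the fold is the enrichment of ChIP over input that the peak caller estimated.

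Along the arm, YPGly regions were spread over the whole length. In 50-kb windows from the chromosome end inwards, the number called in all 3 YPGly libraries was never 0. It ranged from 3 to 27 with a median of 13.5, while the 210 windows elsewhere, counted up to the last called position of each chromosome, had a median of 2 and a highest count of 11. Of the 20 arm windows, 14 lay above that highest count. The fullest window, from 100001 to 150000, held 27 YPGly regions and 9 YPD regions.

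The lower YPGly counts began inside the arm and not at its limit. The first 15 windows held 9 to 27 YPGly regions each. The following 5 windows, from 750001 to 1000000, held 5, 8, 3, 12 and 9. In positions per 100 kb, the first 750 kb had 39.1, 41.1 and 37.6 in YPGly replicates 1, 2 and 3, the next 250 kb had 18.0, 20.8 and 17.2, and the rest of chromosome C had 6.34, 5.95 and 6.34. The other chromosomes had 6.47, 5.86 and 5.96, close to the right part of chromosome C. The stretches at 750 kb were set after the values were seen.

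In YPD the arm was also denser than the rest, by less. The first 750 kb had 8.53, 8.13 and 8.27 positions per 100 kb in YPD replicates 1, 2 and 3, and the next 250 kb had 7.20, 6.80 and 8.00. The other chromosomes had 3.90, 3.56 and 3.59. YPD regions were absent from 3 of the 20 windows, at 300001 to 350000 and from 700001 to 800000, where 32 YPGly regions lay, and the fullest YPD window elsewhere held 9, as many as on the arm.

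**Figure D1:**
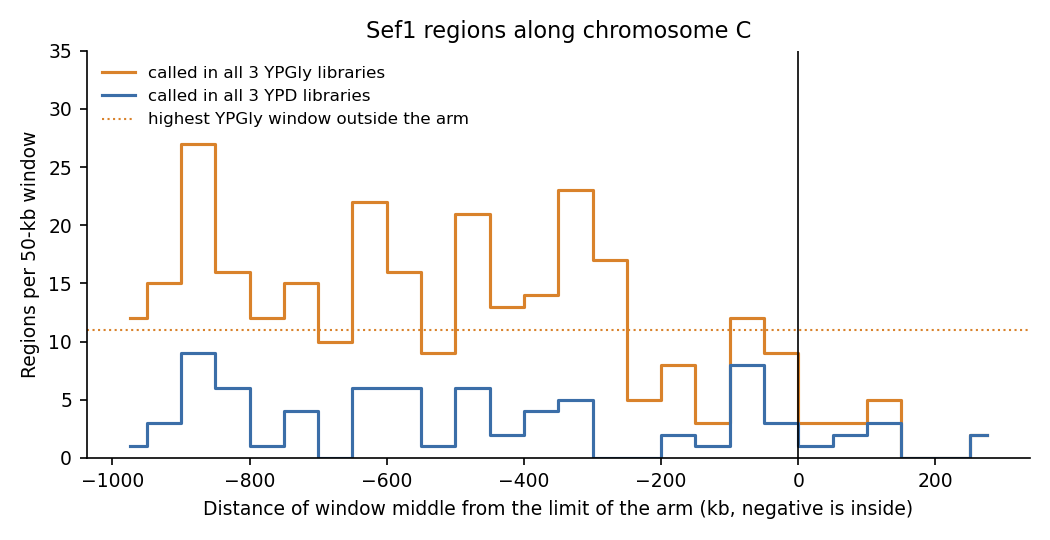
Regions called in all 3 libraries of a medium per 50-kb window (y axis) against the distance of the window middle from the 1 Mb limit of the arm in kb (x axis, negative inside the arm). The YPGly line reaches 27 and drops to between 3 and 12 in the last 5 windows of the arm, and the dotted line marks 11, the highest YPGly count in any window outside the arm.

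Neighbouring members lay a median of 2102 bp apart, measured between their centres, with a lowest gap of 202 bp and a highest of 44732 bp. Of the 283 gaps, 92 (32.5%) were under 1 kb and 20 (7.07%) were over 10 kb. Elsewhere the median gap was 4765 bp, and 22.4% of 603 gaps were under 1 kb and 35% over 10 kb. By share of gaps, the arm thus differed from the rest more at gaps over 10 kb than at gaps under 1 kb. These shares are not numbers per length. The 92 short gaps of the arm lay within 1 Mb, while all the rest of the genome held 135. The 68 YPD regions of the arm lay a median of 6103 bp apart, against 13411 bp elsewhere. The 66 YPGly regions of chromosome E had a shorter median gap than the 2179 bp of the YPGly regions of the arm, 1663 bp, and those of the other chromosomes 3525 to 5861 bp. On chromosome E they were clustered and not dense, with a mean of 2.54 per 50-kb window and 10 of 26 windows empty, against a mean of 13.95 and no empty window on the arm. The median gap on the arm was 3237 bp with a lower bound of the fold of at least 2, and 5318 bp with lists of equal length.

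The closest neighbours, at 538497 to 538686 and 538699 to 538888, were both YPGly-only with mean folds of 3.41 ± 0.04 and 2.95 ± 0.18 (SD, n = 3), and the study assigns both to SAKL0C05676g. Its ortholog in Saccharomyces cerevisiae, CIS3, codes for a cell wall mannoprotein. Gene names throughout are those of the study's peak-to-gene table, which gave a gene for 245 of the 284 members, and the roles are those known in S. cerevisiae. The next pair, 213 bp apart, joined a YPGly-only region at 916020 to 916219, assigned to the ADH1 ortholog, to one called in all 6 libraries at 916221 to 916439, assigned to the TDH3 ortholog. ADH1 and TDH3 code for alcohol dehydrogenase and glyceraldehyde-3-phosphate dehydrogenase, both abundant enzymes of fermenting cells. The third pair lay 230 bp apart within the longest run, described next. In the fourth, 234 bp apart near the histone H4 gene HHF1, a YPD-only region neighboured a region of all 6 libraries. The fifth, 263 bp apart at 77908 to 78097 and 78171 to 78375, was YPGly-only on both sides with folds of 1.77 ± 0.11 and 1.69 ± 0.03 (SD, n = 3).

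The widest gaps lay in the sparser last 250 kb. The widest ran from 851897 to 852086, near the ortholog of the inositol transporter ITR1, to 896617 to 896821. The next, of 22420 bp and 19649 bp, ended at 811406 and 774525. Of the 10 windows of 100 kb, the one that holds most of the widest gap, from 800001 to 900000, had the fewest members, 11, while the one from 100001 to 200000 had the most, 44.

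With neighbours counted together when their centres lay under 1 kb apart, 140 members stood alone, and the rest formed 32 pairs and 20 runs of 3 or more. The longest run held 12 members in 5539 bp, from 113503 to 119041. Of these, 3 were called in all 6 libraries and 6 were YPGly-only. They were assigned to a row of genes with orthologs of YDR514C, SLF1, GRX2 and LSB5, of which GRX2 codes for a glutaredoxin, and to SAKL0C01298g, for which no role is given here.

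Within the run the fold peaked in the middle. At 116167 to 116385 it was 35.1, 36.2 and 36.2 in YPGly replicates 1, 2 and 3, and 6.32, 6.02 and 6.66 in YPD replicates 1, 2 and 3. At 115883 to 116072, 1 step to the left, it was 31.0, 28.0 and 28.7 in YPGly and 2.85, 3.05 and 3.17 in YPD. All YPGly values lay above all YPD values at both regions, which had the highest YPGly over YPD ratios on the arm, 5.66 and 9.66. Both are assigned to SAKL0C01298g, and whether they are separate binding sites was not tested.

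To the right of that summit the YPGly fold declined region by region. It was 6.00 ± 0.25 in the 2 YPGly libraries that called 116520 to 116812, and then 5.13 ± 0.53, 3.55 ± 0.63, 3.11 ± 0.30, 2.32 ± 0.27 and 1.73 ± 0.10 (SD, n = 3). To the left it was 2.74 ± 0.15, then 3.89 ± 0.54 at 114499 to 114690, and 1.71 ± 0.15 and 2.06 ± 0.18 at the end (SD, n = 3). The weak outer members of the run were mostly missing from the YPD lists, and those that were called there had YPD folds between 1.57 and 2.38. The run thus had the form of a tall summit with low flanks, not of 12 summits of like height.

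**Figure D2:**
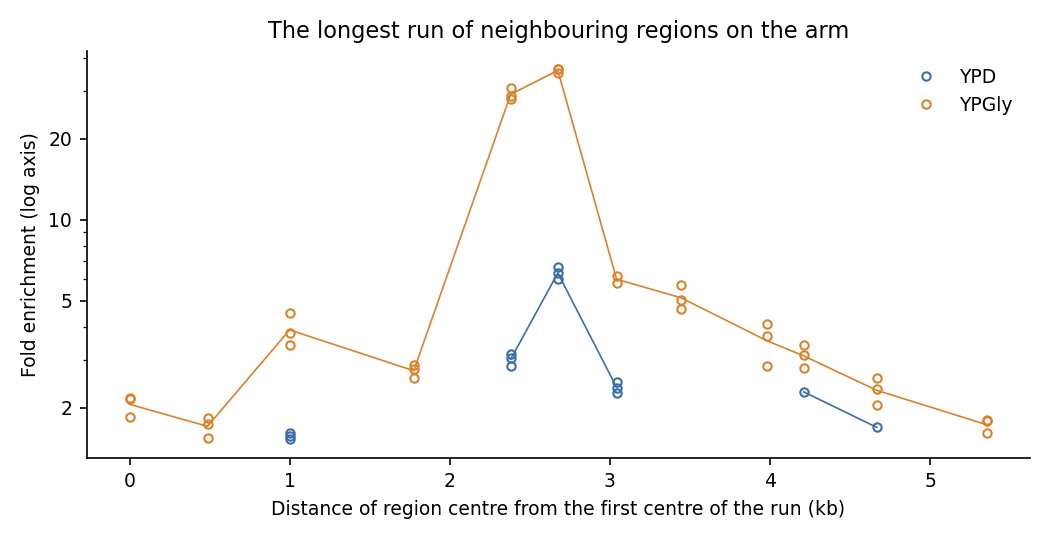
Fold enrichment of ChIP over input (y axis, log scale) in each library that called a member of the longest run, against the distance of the member's centre from the first centre in kb (x axis). Points are libraries, lines join the means over the libraries that called neighbouring members, and the YPGly values climb to between 28.0 and 36.2 at the 2 central members and fall to under 2.2 at the ends.

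The next runs were less peaked. The run of 6 from 664719 to 668364 had its highest fold at its right end, near the NCA3 ortholog, where it was 6.98 ± 0.37 in YPGly against 2.88 ± 0.05 in YPD (SD, n = 3). Its other members had YPGly folds of 1.63 to 4.26, and 1 of them is assigned to the ortholog of UCC1, an F-box protein that marks peroxisomal citrate synthase for degradation. In the run of 5 from 607587 to 611105, the 3 members near the YJL133C-A ortholog were called in all 6 libraries, with 11.3 ± 0.42, 7.23 ± 0.70 and 6.87 ± 0.91 in YPGly against 4.53 ± 0.54, 2.69 ± 0.20 and 2.51 ± 0.23 in YPD (SD, n = 3). The other 2 were YPGly-only, with 1.75 ± 0.04 and 1.51 ± 0.07 (SD, n = 3).

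The members covered a wide range of strength, with most at the low end. Over the 279 YPGly regions the mean fold ran from 1.05 to 127.7 with a median of 2.23. The mean fold was under 2 at 116 of them (41.6%) and at least 10 at 13 (4.66%). At the weakest, 642519 to 642730, the fold was 1.10, 1.08 and 0.975 in YPGly replicates 1, 2 and 3. Elsewhere, the median over 501 YPGly regions was 3.38, with 22.4% under 2 and 15.6% at 10 or more. In YPD the difference from the rest was smaller, with medians of 2.44 over 68 arm regions and 2.60 over 310 regions elsewhere. The replicates were close to each other on the arm, with a median coefficient of variation of 6.89% in YPGly and 6.73% in YPD.

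The YPGly-only members were the weakest class. Their median YPGly fold was 1.82, with a range from 1.05 to 14.3, while members of all 6 libraries had a median of 4.31 and a lowest value of 1.77. The centres of the YPGly-only members lay a median of 4875 bp from the nearest position of any YPD library. Of the 198, 42 lay within 1 kb of one and 63 lay over 10 kb from any.

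Whether a YPGly region also appeared in YPD varied with its strength. Under a fold of 1.5, none of 50 arm regions and none of 49 elsewhere were called in all 3 YPD libraries. At a fold of 1.5 to 2, it was 1 of 66 arm regions (1.52%) and 10 of 63 elsewhere (15.9%). Of the regions with a fold of 2 to 3, 22.7% were called in all 3 YPD libraries on the arm and 34.7% elsewhere. The values were 28.6 and 42.1% at a fold of 3 to 4, and 37.5 and 43.8% at 4 to 6. Above that the order turned, with 76.5% of 17 arm regions against 49.2% of 63 at a fold of 6 to 10, and 92.3% of 13 against 79.5% of 78 at 10 or more. These last 2 steps rest on few arm regions, and as the classes were part of the selection no test was made.

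**Figure D3:**
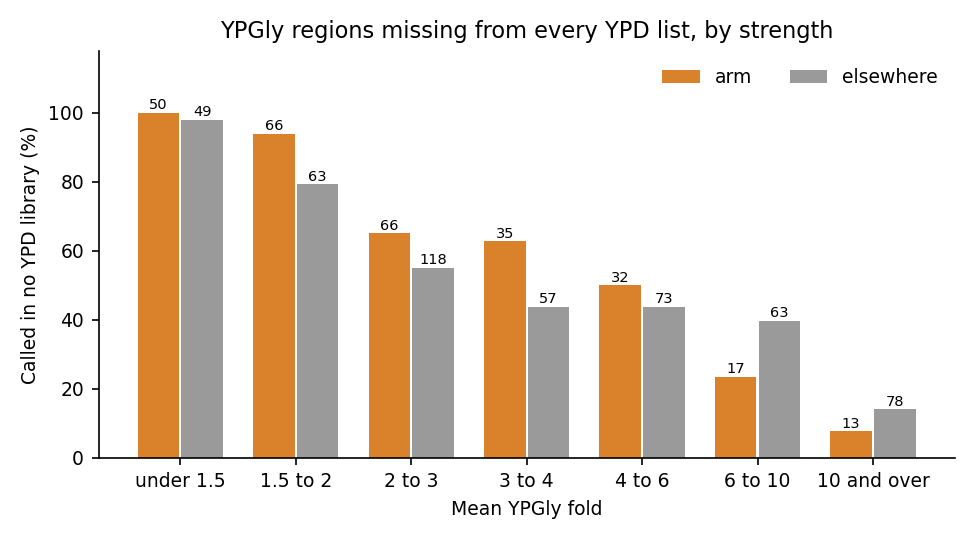
Share of YPGly regions that no YPD library had called (y axis, in percent) by mean YPGly fold (x axis), on the arm (orange) and elsewhere (grey), with the number of regions above each bar. The share falls from 100% of 50 arm regions under a fold of 1.5 to 7.69% of 13 at 10 or more, and the arm bar is the higher one up to a fold of 6 and the lower one above it.

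The strongest region of the arm in both media lay at 693138 to 693327. It is assigned to SAKL0C07491g and to the ortholog of GPD1, glycerol-3-phosphate dehydrogenase, which makes glycerol from a glycolytic intermediate. The fold of this region was 117, 128 and 137 in YPGly replicates 1, 2 and 3, and 59.2, 51.5 and 63.6 in YPD replicates 1, 2 and 3. The next YPD fold on the arm was 16.1. The third strongest YPGly region, at 952216 to 952405, is assigned to the ortholog of MNN2, a mannosyltransferase of the Golgi. It had 32.8, 27.9 and 32.4 in YPGly and 15.3, 15.3 and 17.8 in YPD. The values of the media did not overlap at either region.

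The strongest YPGly-only member, at 310025 to 310214, had folds of 15.5, 12.0 and 15.3 in YPGly replicates 1, 2 and 3 and was in no YPD list. It is assigned to the ortholog of COQ6, a monooxygenase of ubiquinone synthesis that works in the mitochondrion. It was the only member with a YPGly fold of at least 10 that no YPD library had called. The next YPGly-only members were 682757 to 682946 near the ortholog of ARP2, an actin-nucleating protein, with 7.45 ± 0.95, and 340 to 529 near SAKL0C00099g with 7.33 ± 0.33 (SD, n = 3). They were followed by 754882 to 755071 near the YOL073C ortholog with 6.56 ± 1.41 and 283769 to 283964 near the ortholog of MKC7, a cell surface aspartyl protease, with 6.44 ± 0.73 (SD, n = 3). The last of these neighboured a stronger region of all 6 libraries, at 284190 to 284379 and also assigned to MKC7, where the YPGly fold was 15.8 ± 2.84 and the YPD fold 4.14 ± 0.44 (SD, n = 3).

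The very end of the chromosome, 1 to 190, was called in all 6 libraries and differed little by medium. Its fold was 11, 13 and 12.9 in YPGly and 14.2, 12.4 and 13.4 in YPD, with overlapping values. The remaining regions with a YPGly fold of 10 or more that belong to the 10 highest were 123193 to 123382, with no assigned gene, 255190 to 255379 near SAKL0C02706g, and the first member of the run at 607587. Their YPGly folds were 12.2 ± 1.49, 11.3 ± 1.06 and 11.3 ± 0.42, and their YPD folds were 4.33 ± 0.37, 3.92 ± 0.38 and 4.53 ± 0.54 (SD, n = 3).

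**Figure D4:**
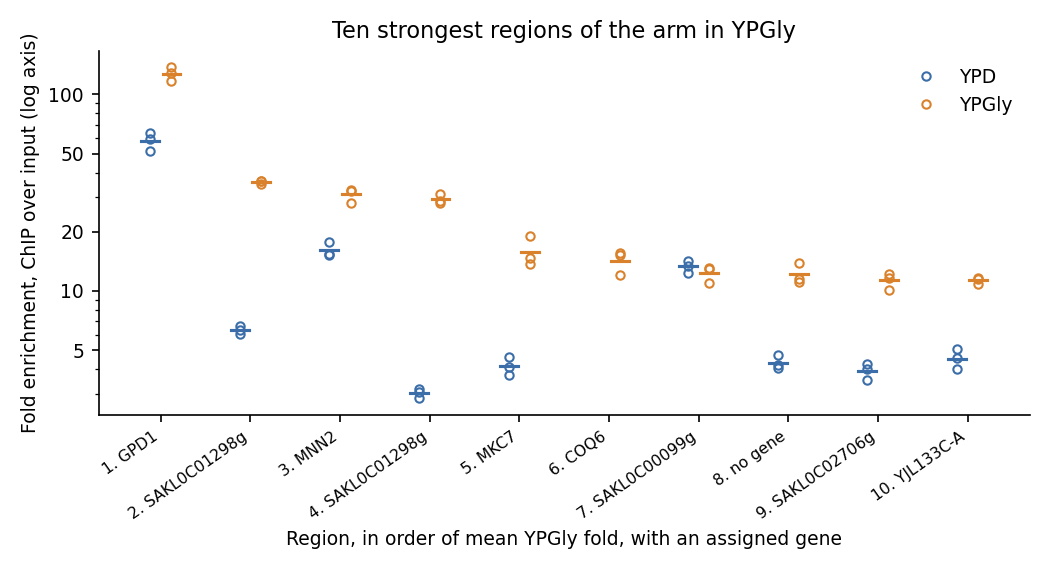
Fold enrichment (y axis, log scale) in each library (points) with the mean of 3 (bars) for the 10 arm regions of highest mean YPGly fold (x axis, with an assigned gene). YPGly values lie above the YPD values at 8 regions, overlap them at the chromosome end (the seventh), and stand alone at the COQ6 region, which no YPD library had called.

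The order in YPD was a different one below the top. The third highest YPD fold was at 354850 to 355052, near SAKL0C03751g, where the YPD replicates had 13.6, 12.9 and 14.1 and the YPGly replicates 7.54, 6.93 and 6.64. The fold was higher in every YPD library than in every YPGly library there, with a YPGly over YPD ratio of 0.52, the lowest on the arm. At 382386 to 382586, near SAKL0C03982g, it was 7.46, 6.24 and 6.04 in YPD and 4.63, 4.38 and 3.89 in YPGly. The other 2 regions of this direction were weaker, at 917390 to 917732 near the ADH1 ortholog with 3.22 ± 0.16 against 2.24 ± 0.24, and at 154382 to 154592 near the IRC20 ortholog with 2.08 ± 0.17 against 1.77 ± 0.14 (SD, n = 3).

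The rest of the 10 highest YPD regions, apart from the summit of the longest run, had ratios nearer to 1. Those at 379957 to 380146 and 411965 to 412154 had YPD folds of 6.61 ± 0.29 and 6.60 ± 0.41 and YPGly folds of 10.3 ± 0.49 and 9.52 ± 0.92 (SD, n = 3). They are assigned to the YJL206C ortholog and to that of UBP12, a protease that removes ubiquitin. The region at 971408 to 971636, near HHF1, had 5.76 ± 0.31 and 7.33 ± 1.02, and the one at 106639 to 106828, with no assigned gene, had 5.20 ± 0.49 and 6.5 ± 1.10 (SD, n = 3). The region at 100496 to 100752, near the ortholog of the disulfide isomerase EUG1, had the fifth lowest ratio, 0.88, with overlapping values.

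The YPD-only members all lay next to a YPGly position. The strongest, at 971197 to 971380 near HHF1, had folds of 4.43, 4.4 and 4.62 in YPD and lay 204 bp from the nearest YPGly position. The others, at 917782 to 918125 and at 914482 to 914669 near the ortholog of the mitochondrial ribosomal protein MRPS9, had 2.61 ± 0.45 and 2.20 ± 0.23 in YPD (SD, n = 3), at 485 and 507 bp from a YPGly position. All 3 were in the last 100 kb of the arm.

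The regions with the strongest shift to YPGly after those of the longest run lay near orthologs of MET2, which acetylates homoserine in methionine synthesis, and TIM17, a core subunit of the import channel in the inner mitochondrial membrane. The MET2 region, 203532 to 203773, had 10.5, 9.09 and 10.5 in YPGly and 1.84, 1.80 and 1.86 in YPD, a ratio of 5.46. The TIM17 region, 576602 to 576791, had 9.90, 8.54 and 9.63 in YPGly and 2.09, 2.33 and 2.37 in YPD, a ratio of 4.14. The fifth, 406321 to 406510, has no assigned gene and had 8.42, 7.18 and 8.80 against 2.00, 2.21 and 1.99, a ratio of 3.93.

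Over the 63 members called in all 6 libraries, the YPGly folds were all above the YPD folds at 50, the YPD folds all above the YPGly folds at 4, and the values overlapped at 9. Over all 263 such regions of the genome, arm included, the corresponding shares were 72.6% for YPGly above and 12.9% for YPD above. They were 79.4 and 6.35% on the arm and 70.5 and 15% over the 200 regions elsewhere. The difference was not tested, and the YPD share on the arm rests on 4 regions. The ratio of mean fold had a median of 1.90 on the arm, 1.51 elsewhere and 1.58 over all 263 regions. Its quartiles were 1.25 and 2.71 on the arm and 1.04 and 2.62 elsewhere. It ranged from 0.52 to 9.66 on the arm and from 0.16 to 9.72 elsewhere. On the arm it was at least 2 at 28 members and under 1 at 7, counts that were not made elsewhere. Folds in the 2 media followed each other loosely across the 63 regions, with a Spearman correlation of 0.55 and a Pearson correlation of 0.71 of log2 values, against 0.73 and 0.79 over 200 regions elsewhere. Regions within a library share its depth and input, so these correlations only describe the lists. The positions themselves hardly moved, as the mean positions in the 2 media lay a median of 6.33 bp apart on the arm and 7 bp elsewhere.

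**Figure D5:**
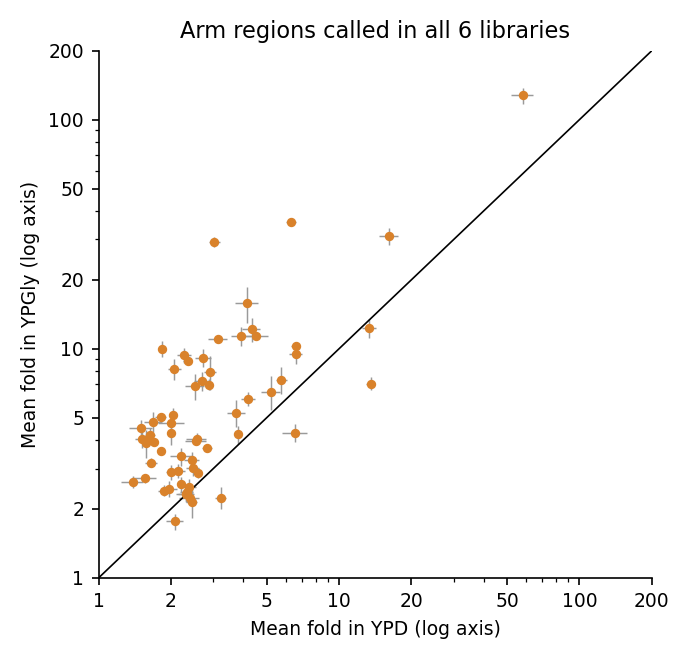
Mean fold in YPGly (y axis, log scale) against mean fold in YPD (x axis, log scale) for the 63 arm regions called in all 6 libraries, with SD over 3 libraries as error bars and the line of equal values. Most points lie above the line, 7 lie below it, and the point at the top right is the GPD1 region with 127.7 in YPGly and 58.1 in YPD.

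To test the medium on regions with a fold in every library, these 63 regions were used. This filter did not weigh equally on the media, as 279 arm regions had all YPGly calls and 68 all YPD calls. The result therefore holds for these regions only. Their median fold was taken in each library. It was 2.46, 2.33 and 2.58 in YPD replicates 1, 2 and 3 and 4.63, 4.38 and 4.29 in YPGly replicates 1, 2 and 3. The ratio of YPGly to YPD was 1.81, with all YPGly libraries above all YPD libraries (two-sided exact permutation test over libraries, p = 0.1, the smallest that 3 against 3 allow). Elsewhere the medians were 3.29, 3.10 and 3.32 in YPD and 6.03, 5.33 and 5.28 in YPGly, a ratio of 1.71. The arm regions were weaker than those elsewhere in all 6 libraries. The difference in median log2 fold, arm minus elsewhere, was -0.40 ± 0.03 for YPD and -0.32 ± 0.05 for YPGly (SD, n = 3). The media differed in it by 0.08 (two-sided exact permutation test, p = 0.2, where 3 against 3 cannot go below 0.1). That difference was 0.16 with a lower bound of the fold of at least 2, 0.14 with a longer overlap for merging and 0.18 with the mean over regions in place of the median (exact permutation p = 0.1 in each). The samples of a medium are described as biological replicates, and p-values measure only the spread between them.

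The rule for members did not use the height of a peak relative to its fold. This height was taken as the caller's score, an unscaled peak height, divided by the fold over input. It was compared within each library between positions on the arm and elsewhere. All positions had passed the caller's false discovery rate of 0.05, so the comparison is not independent of the calls. The median score per unit of fold was lower on the arm in all 6 libraries. The arm over elsewhere ratio of these medians was 0.873, 0.864 and 0.840 in YPD replicates 1, 2 and 3 and 0.751, 0.725 and 0.776 in YPGly replicates 1, 2 and 3. The mean log2 difference was -0.32 ± 0.11 (SD, n = 6 libraries), a ratio of 0.803 (two-sided exact sign-flip permutation test, p = 0.031, the smallest that 6 libraries allow, and 0.125 after Benjamini-Hochberg adjustment over the 4 tests made). The other 3 tests had adjusted p-values of 0.133, 0.133 and 0.2 from the same exact permutation tests.

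The difference was smaller where folds were matched. Over positions with a fold of 2 to 3, a comparison chosen after the values were seen, the mean log2 difference was -0.16 ± 0.09 (SD, n = 6 libraries), lower on the arm in 6 of 6 libraries (exact sign-flip permutation p = 0.031). It was -0.22, -0.19 and -0.14 in YPD replicates 1, 2 and 3 and -0.30, -0.04 and -0.08 in YPGly replicates 1, 2 and 3, so that little of it was left in YPGly replicates 2 and 3. The mean was -0.16 as well with a lower bound of the fold of at least 2. The log2 difference was larger in YPGly, at -0.41 ± 0.05, than in YPD, at -0.22 ± 0.03 (SD, n = 3; exact permutation p = 0.1), but this order turned at matched fold, where YPGly minus YPD was 0.04 (exact permutation p = 0.7). Neither input coverage nor base composition was measured here, and their part in this difference was not tested.

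At the limit of the arm, the last members inside were YPGly-only regions at 984659 to 984852 near the RCR2 ortholog and 987335 to 987524 near SAKL0C10912g, with YPGly folds of 1.27 ± 0.07 and 2.64 ± 0.10 (SD, n = 3). The first regions outside, at 1036077 to 1036268 and 1040300 to 1040507, were also YPGly-only, with 3.14 ± 0.30 and 1.38 ± 0.04 (SD, n = 3). The limit thus fell in a stretch without a region.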

How the data were processed

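Sef1 ChIP and input DNA of 12 samples (4 groups of 3, from the titles) were sequenced. Per the study's methods, the authors mapped reads to the genome of L. kluyveri CBS 3082, then called peaks per ChIP library against its input with SPP at a false discovery rate of 0.05. The assembly version is not given in the sources used here. The submitters' processing notes name Trimmomatic 0.36, FastQC 0.11.8, Bowtie2 2.3.3 and DiffBind 2.10.0. The deposited lists give a position, an interval, a score (peak height, a signal not scaled to depth), a fold ratio of ChIP over input and a false discovery rate (q-value). The YPGly lists were longer than the YPD lists, which bears on every count by medium.

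Intervals were merged and members chosen as stated. Regions named in the text are the 10 highest of each medium, the 5 highest called in 1 medium only, the 5 highest and 5 lowest ratios, the closest 5 pairs, the widest 3 gaps, the longest 3 runs and the 2 nearest the limit on each side. Members, lists and tests were chosen with earlier results of these data known. Libraries were the replicates of every test. Alternatives were a lower bound of the fold of at least 2, an arm limit of 0.9 Mb, another merging overlap, lists of equal length, other summaries and leaving out each library. Scripts in Python 3.11.15 (scipy 1.17.1, numpy 2.4.6, pandas 2.3.3) were tested on simulated data.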

Additional observations from a re-analysis of the deposited data

How the results depend on the processing

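Over 10 results, 111 alternatives were run. Of these, 92 were labelled unchanged. For the counts and the spacing this meant a size within a set limit. For the 4 tested results it meant only the same direction and the same side of a p of 0.05, whatever the size. With 3 against 3 the exact permutation p cannot go below 0.1, so there the side was fixed in advance. A lower bound of the fold of at least 2 gave 140 members, 133 YPGly regions, 40 YPD regions, 94 YPGly-only regions, 33 regions in all libraries and a median gap of 3237 bp. Lists of equal length gave 115 members, 105 YPGly regions, 64 YPD regions, 39 YPGly-only regions, 54 regions in all libraries and a median gap of 5318 bp. Both settings leave fewer positions in the lists, and no share over the genome was computed under them. The difference between media in score per unit of fold turned from -0.19 to 0.061 with the lower bound of at least 2 and to 0.044 for folds of 2 to 3, and the cause was not tested.

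Leaving out 1 library gave 283 to 307 members, 279 to 302 YPGly regions, 68 to 72 YPD regions, 199 to 220 YPGly-only regions, 63 to 66 regions in all libraries and a median gap of 1960 to 2108 bp. It gave a YPGly over YPD ratio of 1.74 to 1.86, an arm minus elsewhere difference between media of 0.060 to 0.127, a score per unit of fold of -0.341 to -0.287, and a difference of the latter between media of -0.219 to -0.170. For the score per unit of fold the exact permutation p rose to 0.0625, the smallest that 5 libraries allow. With the replicate number as a replicate block, the ratio of 1.81 and the difference of 0.08 had exact sign-flip permutation p-values of 0.25, the smallest for 3 pairs. The deviations of same-numbered libraries from their group means had correlations of -0.11, -0.18 and 0.14 over 263 regions, so the numbers were not taken as pairs. The lists carry no read counts per library, so no counting interval was computed, and the caller's own lower bound of the fold was a median of 0.905 to 0.918 times the fold on the arm.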
